A study of Mus musculus with 6 samples.

Results

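The genes described here are 10 early T lineage genes that depend on Notch signals in the thymus: Tcf7, Gata3, Bcl11b, Ptcra, Il2ra, Dtx1, Cd3e, Cd3g, Lck and Il7r. They were chosen by name, and every probe set that the platform annotation pairs with one of these symbols was taken. This gave 14 probe sets of 8 genes, of 45037 probe sets and 18193 named genes in all, since no probe set carried Tcf7 or Lck as its symbol in the annotation used here. Tcf7 and Lck are therefore not analysed here. Bcl11b had 4 probe sets, Il2ra, Il7r and Dtx1 had 2 each, and Gata3, Ptcra, Cd3e and Cd3g had 1 each. No filter on low values was applied, so all 14 entered the tests.

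The samples were sorted leukaemic progenitors from the bone marrow of mice, hybridised to 6 arrays, 3 of each genotype. Marrow cells positive for cKit were infected with MLL-AF9-IRES-YFP, which carries a fusion oncogene of acute myeloid leukaemia and a yellow fluorescent marker, and 50000 of them were given to lethally irradiated wild-type mice aged 12 weeks along with 250000 wild-type support cells. The WT group (n = 3) was EF1αwt/wt and the N1-IC group (n = 3) was EF1αwt/lsl-N1-IC, an allele of the EF1α locus from which tamoxifen-activated Cre is meant to switch on the intracellular domain of Notch1. Both groups carried MLL-AF9 and the Cre allele ROSAwt/CreERT2, and both received tamoxifen, 2 injections of 0.2 mg per g of body weight starting 4 weeks after transplantation, and were analysed 6 days after the last one. The sorted cells, called LGMP in the labels, lacked lineage markers and Sca1 and were YFP+ and cKit+ as well as CD34+ and FcgRII/III+. All WT samples were labelled male and all N1-IC samples female, so genotype and sex cannot be told apart. The labels do not say that replicates came from separate animals, so p-values here reflect only the spread among these arrays, which may be technical.

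Notch is a receptor whose intracellular domain, once cut free, enters the nucleus and joins the DNA-binding protein RBPJ and Mastermind to activate transcription. In the thymus this signal commits incoming progenitors to the T lineage. It acts through the transcription factors TCF-1 (from Tcf7), GATA3 and Bcl11b, and the committed cells then build the pre-T cell receptor with the CD3 chains and the kinase Lck. Myeloid progenitors do not normally run this programme.

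Values are log2 intensities. On the 6 arrays the lower quartile of all probe sets lay between 3.86 and 3.92 and the median between 5.63 and 5.67, and these serve as yardsticks for each probe set on its own array. Detection calls were not used here, so neither yardstick says whether a transcript was present. The genes of the gate and of granulocyte-monocyte progenitors were far above both, with the peroxidase gene Mpo at 13.97 ± 0.146 in WT and 14.06 ± 0.044 in N1-IC, and the granule protease genes Prtn3 and Ctsg at 13.94 and 13.93 in WT and 13.97 and 13.96 in N1-IC (mean, SD over n = 3 arrays). Of 15 probe sets of 10 such genes, 14 lay above the median on all 6 arrays.

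The T lineage members lay mostly below the array medians in both groups. Their 84 values ran from 2.57 to 6.26 log2 units, which is 5.93 to 76.4 intensity units, and 4 of the 84 were above the median of their array. None of the 14 probe sets was above the median on all 6 arrays, where 45% of all probe sets were. At least 1 array above the median was found for 3 of 14 (21.4%), against 55.5% of all probe sets. Above the lower quartile on all 6 arrays were 7 of 14 members, against 69.9% of all probe sets. These 7 were the 4 probe sets of Bcl11b, those of Cd3e and Cd3g, and probe set 1458643_at of Dtx1. Below the lower quartile on all 6 arrays were 3 of 14, namely 1425822_a_at of Dtx1, 1420691_at of Il2ra and 1448576_at of Il7r. Over all probe sets that share was 19.8%, near the 21.4% of the members. In RNA of a sorted population, fewer cells that express a gene and less RNA per cell cannot be told apart.

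**Figure D1:**
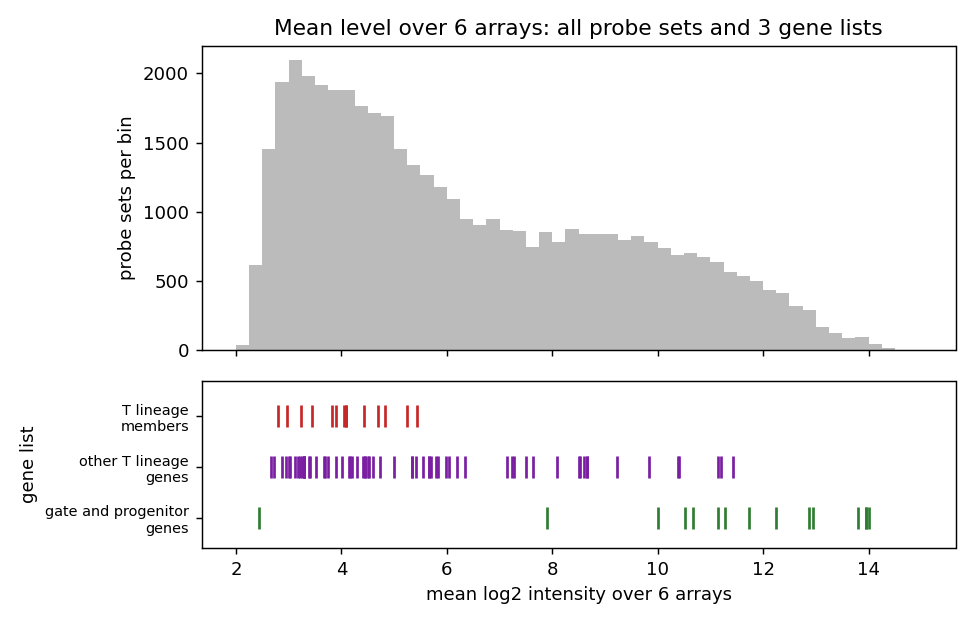
Upper panel: number of probe sets (vertical axis) per bin of mean log2 intensity over the 6 arrays (horizontal axis). Lower panel: each tick is 1 probe set of the T lineage members (14), the other T lineage genes (65) or the gate and progenitor genes (15). The members lie in the lower part of the distribution, while 14 of the 15 gate and progenitor probe sets lie above the array medians.

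**Figure D2:**
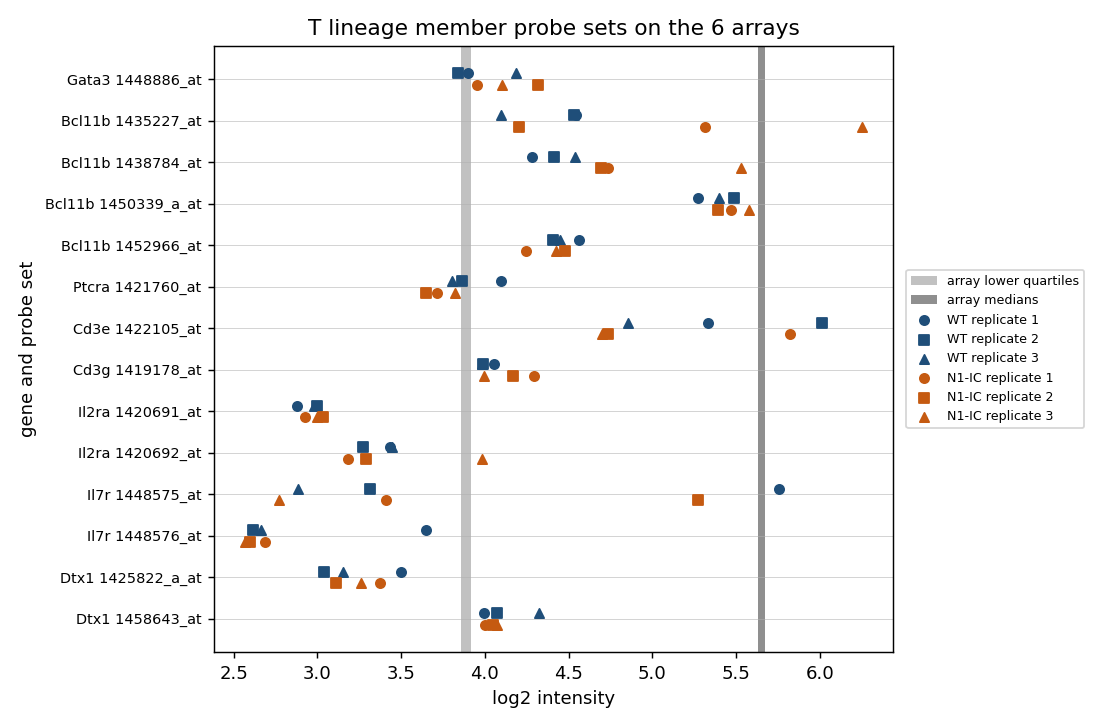
Log2 intensity (horizontal axis) of the 14 member probe sets (rows) on each array, with WT in blue and N1-IC in orange and 1 marker shape per replicate number. The light band spans the array lower quartiles (3.86 to 3.92) and the dark band the array medians (5.63 to 5.67). Values cross the median for 1435227_at of Bcl11b, 1422105_at of Cd3e and 1448575_at of Il7r.

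The comparison of N1-IC with WT asks whether an induced Notch1 intracellular domain was accompanied by T lineage transcripts in these myeloid cells. None of the 14 member probe sets passed a limma adjusted p of 0.05 over all 45037 probe sets, and none had an unadjusted p under 0.05. Of all probe sets, 4 (0.00888%) passed the adjusted threshold and 3466 (7.7%) had an unadjusted p under 0.05. Among the 4 was 1417210_at of the Y-linked gene Eif2s3y, with a log2 fold change of -7.75, where the WT samples were labelled male and the N1-IC samples female. The smallest adjusted p among the members was 0.644 in limma. The mean was higher in N1-IC for 8 members and lower for 6, against 50.5% of all probe sets higher. The median log2 fold change of the members was 0.03, and that of all probe sets was 0.0025. In 1 of 14 (7.14%) the groups did not overlap, 1438784_at of Bcl11b, which was higher in N1-IC. Over all probe sets 14.4% had groups that did not overlap, 7.4% with N1-IC higher.

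The fit also gives the size of change that the 3 arrays per group leave possible. The 95% interval of the log2 fold change included 0 for all 14 members. For 11 of 14 its upper bound was under 1, that is, under a doubling. The other 3 were 1435227_at and 1438784_at of Bcl11b and 1448575_at of Il7r. For 9 of 14 the whole interval lay between -1 and 1. These intervals hold for the measured intensity, and for a probe set whose signal is background they say nothing of its transcript.

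**Figure D3:**
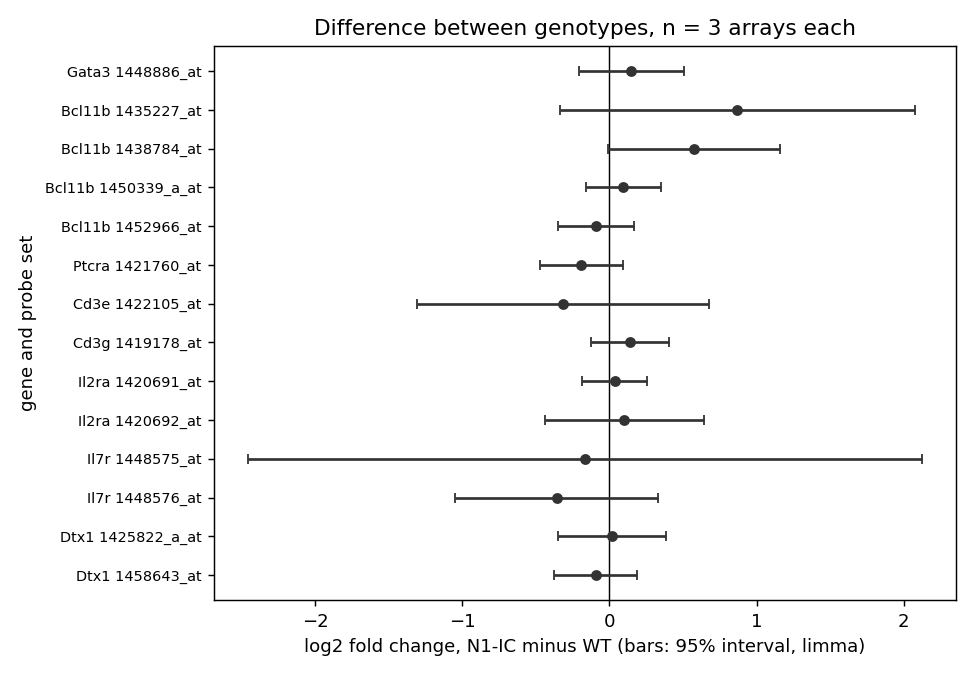
Log2 fold change, N1-IC minus WT (horizontal axis), of the 14 member probe sets (rows), with the 95% interval from limma as bars (n = 3 arrays per group). All 14 intervals include 0. The intervals of 1435227_at of Bcl11b and 1448575_at of Il7r reach furthest above 1.

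Promoter sequences of the measured members were read from RefSeq (GRCm38.p6, windows of 300 bases from 250 before to 50 after a start site) to show which hold the core letters bound by RBPJ, the factor through which the Notch domain acts. All 8 genes matched. The motif searched was TGGGAA on both strands. It was found in 25.6% of 32851 windows, and in 3.79% more than once. Among the members it occurred in Ptcra (2 copies), Cd3e and Cd3g, and not in the windows of Gata3, Bcl11b, Il2ra, Il7r or Dtx1. The longer motif GTGNGAA, which can overlap the first, was in 14.2% of windows and in those of Cd3g and Il2ra. The windows below are those of the 3 members with TGGGAA and, beside them, of Bcl11b, the gene with the highest log2 fold changes among the members. They are written 5′ to 3′ on the gene's own strand (minus for all 4), with the motif in capitals. They lie at chr17:46763663-46763962 (Ptcra), chr9:45009562-45009861 (Cd3e), chr9:44980382-44980681 (Cd3g) and chr12:108003365-108003664 (Bcl11b).
Ptcra: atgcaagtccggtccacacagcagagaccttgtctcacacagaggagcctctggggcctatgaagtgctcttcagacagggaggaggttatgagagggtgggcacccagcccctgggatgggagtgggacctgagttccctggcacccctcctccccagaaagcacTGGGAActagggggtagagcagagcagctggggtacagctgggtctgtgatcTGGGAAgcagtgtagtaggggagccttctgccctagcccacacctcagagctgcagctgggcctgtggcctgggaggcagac
Cd3e: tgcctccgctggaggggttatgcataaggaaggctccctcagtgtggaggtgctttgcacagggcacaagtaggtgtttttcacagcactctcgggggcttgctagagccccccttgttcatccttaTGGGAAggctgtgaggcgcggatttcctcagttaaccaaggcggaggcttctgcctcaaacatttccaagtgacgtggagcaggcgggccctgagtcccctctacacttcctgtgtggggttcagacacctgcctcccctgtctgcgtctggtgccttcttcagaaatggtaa
Cd3g: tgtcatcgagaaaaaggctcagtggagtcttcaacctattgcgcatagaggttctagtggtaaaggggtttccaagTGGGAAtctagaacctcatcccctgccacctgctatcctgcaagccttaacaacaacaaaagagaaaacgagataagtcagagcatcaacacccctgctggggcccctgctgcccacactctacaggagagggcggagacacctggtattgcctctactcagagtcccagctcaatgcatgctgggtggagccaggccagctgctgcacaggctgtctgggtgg
Bcl11b: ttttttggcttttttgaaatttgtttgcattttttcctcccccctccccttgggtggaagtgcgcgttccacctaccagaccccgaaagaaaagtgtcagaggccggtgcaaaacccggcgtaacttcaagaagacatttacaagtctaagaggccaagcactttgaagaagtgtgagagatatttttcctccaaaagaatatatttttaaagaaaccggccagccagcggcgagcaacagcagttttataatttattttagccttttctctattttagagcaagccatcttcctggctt
In Ptcra the copies begin 84 and 32 bases before the start site, in Cd3e the copy begins 123 bases before it and in Cd3g 174 bases before it. A match to these letters is a description and not a binding site.

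Among the transcription factors, Gata3 and Bcl11b were measured. Gata3, the zinc finger factor that early T cells share with type 2 helper and innate lymphoid cells, had values of 3.90, 3.84 and 4.19 in WT against 3.96, 4.32 and 4.10 in N1-IC, here and for the other genes in the order of replicates 1 to 3. The groups overlapped, and all 6 values lay near the lower quartile of their arrays, 5 above it and 1 below. The log2 fold change was 0.15 ± 0.15 (limma standard error, adjusted p = 0.769), and it ran from 0.053 without N1-IC replicate 2 to 0.26 without WT replicate 3.

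Bcl11b encodes the zinc finger repressor that locks progenitors into the T lineage, and it is the member with the highest fold changes. Its 4 probe sets disagreed. Probe set 1435227_at had 4.54, 4.53 and 4.10 in WT and 5.32, 4.21 and 6.26 in N1-IC. N1-IC replicates 1 and 3 were above all WT arrays and N1-IC replicate 2 was inside the WT range, and the value of replicate 3 was above its array's median. Probe set 1438784_at had 4.28, 4.41 and 4.54 in WT and 4.73, 4.69 and 5.53 in N1-IC, so every N1-IC array was above every WT array and replicate 3 was again the highest. The log2 fold changes were 0.87 ± 0.50 and 0.57 ± 0.24, with unadjusted p values of 0.129 and 0.0535 and limma adjusted p values of 0.674 and 0.644. Neither passed. In the ranking of all 45037 probe sets by fold change, 0.959% stood above the first and 2.5% above the second. In the ranking by limma p, 19.2% had a smaller p than the first and 8.24% a smaller p than the second.

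The other probe sets of Bcl11b showed no such pattern. Probe set 1450339_a_at had 5.27, 5.49 and 5.40 in WT and 5.47, 5.39 and 5.58 in N1-IC, and 1452966_at had 4.56, 4.41 and 4.45 in WT and 4.25, 4.48 and 4.42 in N1-IC. Both overlapped between the groups, with log2 fold changes of 0.09 ± 0.11 and -0.09 ± 0.11 (standard error) and limma adjusted p values of 0.796 and 0.81. Which part of the transcript each probe set covers was not analysed here. The fold changes of the first pair rested largely on N1-IC replicate 3. Without that array they were 0.37 for 1435227_at and 0.30 for 1438784_at, and without N1-IC replicate 2 they were 1.40 and 0.72.

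Direct response genes of Notch were read beside Bcl11b. Nrarp, a feedback inhibitor of the pathway, had 8.01, 9.74 and 11.33 in N1-IC by its brighter probe set and 7.22, 6.96 and 6.41 in WT. Its other probe set, 1417986_at, overlapped between the groups, with 4.69, 6.98 and 8.52 in N1-IC and 5.78, 5.02 and 3.57 in WT. Hes1, a transcriptional repressor, had 6.44, 6.80 and 7.88 in N1-IC and 6.12, 5.52 and 5.87 in WT. N1-IC replicate 3 thus held the highest value of both probe sets of Nrarp, of Hes1 and of 1435227_at and 1438784_at of Bcl11b. Those probe sets of Bcl11b were picked for fold changes that rest largely on that array, so its place there is no separate observation. N1-IC replicate 2, which was second for Nrarp and Hes1, was the lowest N1-IC array for both of them. Neither response gene passed over all probe sets (log2 fold changes of 2.83 ± 0.80 and 1.203 ± 0.38, limma adjusted p of 0.639 each). Their unadjusted p values in limma were 0.0115 and 0.0195, and in these probe sets every N1-IC array was above every WT array. Of 6 probe sets of Nrarp, Hes1, Hey1 and Notch1, 3 had an unadjusted p under 0.05 in limma, against 7.7% of all probe sets. Hey1, a repressor related to Hes1, had 0.35 ± 0.09 and the same adjusted p, and the brighter probe set of the receptor gene Notch1 had -0.0041 ± 0.18 (adjusted p = 0.996).

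**Figure D4:**
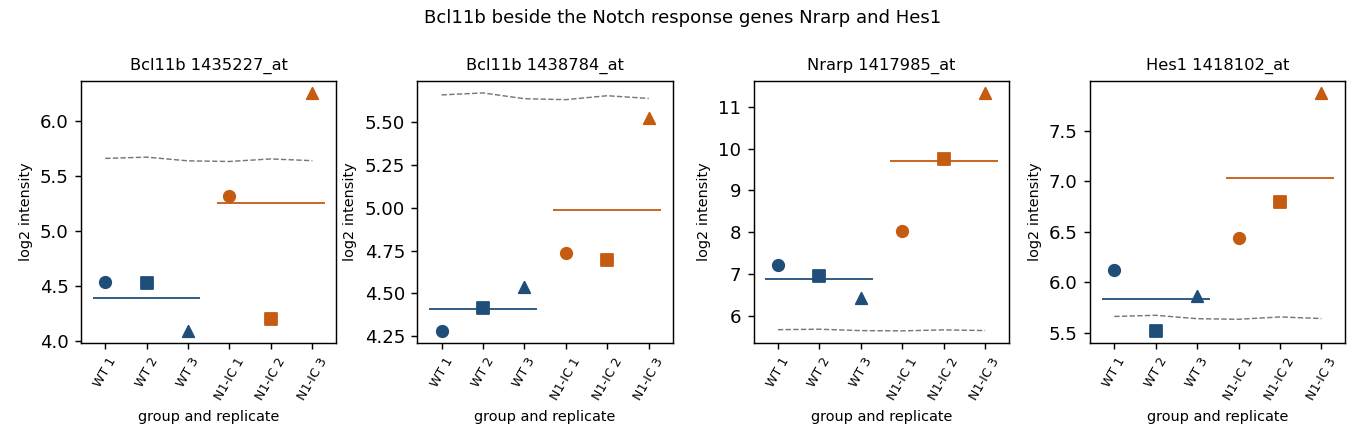
Log2 intensity (vertical axes, each with its own range) on the 6 arrays (horizontal axes) for 2 of the 4 probe sets of Bcl11b and the brighter probe sets of Nrarp and Hes1. The 2 of Bcl11b were those with the highest log2 fold changes. Points are arrays, horizontal lines are group means (n = 3) and dashed lines are array medians. N1-IC replicate 3 is the highest array in all 4 panels, at 6.26, 5.53, 11.33 and 7.88. For Bcl11b this follows largely from the choice, since those fold changes rest largely on that array.

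Of the pre-T cell receptor and CD3 genes, Ptcra and Cd3g stayed low in both groups, while Cd3e was above the array median on 2 of the arrays. Ptcra, which encodes the invariant chain of the pre-T cell receptor and is a known direct target of Notch in thymocytes, had 4.10, 3.87 and 3.80 in WT and 3.72, 3.65 and 3.82 in N1-IC. All 3 N1-IC values were below the lower quartile of their arrays, and WT replicate 3 lay between N1-IC replicates 1 and 3, so the groups overlapped. Its log2 fold change was -0.19 ± 0.12 (limma adjusted p = 0.686), with a 95% interval from -0.47 to 0.09, and it was -0.10 without WT replicate 1. The promoter window of Ptcra is the one with 2 copies of TGGGAA.

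Cd3g, a signalling chain of the T cell receptor complex, had 4.06, 3.99 and 3.98 in WT and 4.29, 4.17 and 4.00 in N1-IC. The 2 lowest WT arrays and the lowest N1-IC array were within 0.02 of each other, and the log2 fold change was 0.14 ± 0.11 (limma adjusted p = 0.722). Leaving out N1-IC replicate 1 gave 0.073 and leaving out replicate 3 of that group gave 0.22. Cd3e, the chain that pairs with both Cd3g and Cd3d products, varied more. It had 5.33, 6.01 and 4.85 in WT and 5.82, 4.73 and 4.70 in N1-IC, so that 1 array of each group was above its array's median. The log2 fold change was -0.31 ± 0.41 (limma adjusted p = 0.827), and this moved with each of 5 arrays. The value was -0.0082 without WT replicate 2 and -0.59 without WT replicate 3, and -0.68, -0.14 and -0.12 when N1-IC replicate 1, 2 or 3 was left out.

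WT replicate 2 had the highest Cd3e, 6.01, with N1-IC replicate 1 close at 5.82. WT replicate 2 stood apart more clearly in some other genes, though not in Cd3g (3.99). Cd3d, which lies between Cd3g and Cd3e on chromosome 9, was at 6.19 there against 4.10 to 4.89 on the other arrays. The erythroid genes Car1, a carbonic anhydrase gene, and Klf1, a transcription factor gene, were at 12.44 and 10.04 there, against 4.37 to 8.64 and 5.46 to 6.25 elsewhere. Other genes of the erythroid list separated less or not at all. Car2 was at 12.99 there and 11.73 in N1-IC replicate 1, and the brightest probe set of Tfrc at 12.36 there and 12.21 in WT replicate 3. Tfrc probe set 1422966_a_at was highest in N1-IC replicate 2, and Hba-a1 in N1-IC replicate 3 (4.45, against 4.07 in WT replicate 2). The erythroid list had a mean of 9.80 over 8 genes on WT replicate 2, against 6.05 to 7.05 on the others, with none of the 8 at or below the lower quartile on all arrays. The part of such cells in the Cd3e values was not tested.

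The cytokine receptor genes of early T cells split between a flat and a variable pattern. Il2ra, the interleukin 2 receptor alpha chain that marks the stages of Notch dependence in the thymus, had 2.88, 3.00 and 2.98 in WT and 2.93, 3.03 and 3.00 in N1-IC by 1420691_at. The 6 values spanned 0.154, the narrowest range of the 14 members, and the log2 fold change was 0.03 ± 0.09 (limma adjusted p = 0.917). Its other probe set, 1420692_at, had 3.44, 3.27 and 3.44 in WT and 3.18, 3.29 and 3.98 in N1-IC, where N1-IC replicate 3 alone was above the lower quartile (log2 fold change of 0.10 ± 0.22, limma adjusted p = 0.901). Without that array the fold change was -0.15.

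Il7r encodes the interleukin 7 receptor alpha chain, which lymphoid progenitors need for survival. Probe set 1448575_at had 5.76, 3.32 and 2.88 in WT and 3.41, 5.28 and 2.77 in N1-IC. WT replicate 1 and N1-IC replicate 2 were thus more than 1 log2 unit above all other arrays, and the remaining 4 arrays lay below the lower quartile. The high arrays belonged to different groups, and the log2 fold change was -0.17 ± 0.94 (limma adjusted p = 0.964). It changed sign without WT replicate 1, to 0.72, and also without N1-IC replicate 1, to 0.037, and without N1-IC replicate 3, to 0.36. The dimmer probe set 1448576_at was also highest in WT replicate 1, at 3.65 against 2.57 to 2.69 elsewhere, and N1-IC replicate 2 was not raised in it (2.60). Its log2 fold change was -0.36 ± 0.28 (limma adjusted p = 0.728), and without WT replicate 1 it was -0.022.

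Dtx1 encodes Deltex1, a ubiquitin ligase that feeds back on Notch and is induced by it in T cells. Probe set 1458643_at had 3.99, 4.07 and 4.32 in WT and 4.00, 4.05 and 4.07 in N1-IC, and 1425822_a_at had 3.50, 3.04 and 3.16 in WT and 3.37, 3.11 and 3.26 in N1-IC. The groups overlapped in both. The log2 fold changes were -0.09 ± 0.12 and 0.02 ± 0.15 (limma adjusted p of 0.823 and 0.977).

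The other genes of the T lineage were read from a list of 30, of which 29 had a probe set, 65 in all. None passed the adjusted threshold, and 2 of 65 (3.08%) had an unadjusted p under 0.05 in limma, against 7.7% of all probe sets. The groups did not overlap in 6 of 65 (9.23%), 3 in each direction, against 14.4%. The median log2 fold change was 0.0065, and 42 of 65 were above the lower quartile on all arrays. The unadjusted p values under 0.05 were those of Zap70, the kinase of the T cell receptor, and Runx3, a transcription factor also used by myeloid cells. Zap70 had 5.26, 5.27 and 5.56 in WT and 5.79, 5.79 and 5.67 in N1-IC by 1439749_at, which is a difference of 0.39 ± 0.12 on the log2 scale. The other probe sets of Zap70 had 0.12 and 0.03. Runx3 had 10.85, 10.46 and 10.54 in WT and 10.24, 10.12 and 10.24 in N1-IC, which is a difference of -0.42 ± 0.13 on the log2 scale, and its other probe set had 0.06. The limma adjusted p was 0.639 for both.

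Further genes of that list, taken for the smallest p in each direction, gave values with no call. Ets1, a transcription factor gene, had a log2 fold change of 0.57 ± 0.31, Dntt, which encodes terminal transferase, had 0.19 ± 0.10 and the co-stimulatory receptor gene Cd28 had 0.61 ± 0.35. The other probe sets of Dntt went the other way, with -0.087 and -0.095. On the lower side Runx1, which encodes a factor shared by all blood lineages, had -0.33 ± 0.15, the recombinase gene Rag2 had -0.20 ± 0.15 and the receptor gene Notch3, a Notch target in thymocytes, had -0.61 ± 0.46. Limma adjusted p values of these 6 ran from 0.644 to 0.721. The WT replicate 2 array held the highest Notch3 value, 5.58, with the others between 3.71 and 4.19. It also held the highest values of Cd3d and Cd3e, though for Cd3e N1-IC replicate 1 was close. Cd4 and Cd8a probe sets had log2 fold changes between -0.32 and 0.18.

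Markers of other cell types that could share these genes were read on the same arrays. The list of NK cells and innate lymphoid cells had 12 measured genes, of which 3 were at or below the lower quartile on all arrays. Its mean ran from 5.84 to 6.22 on WT arrays and from 5.65 to 6.09 on N1-IC arrays, led by Nkg7 at 13.27 in WT and 13.28 in N1-IC, Id2 at 10.92 and 11.67, and Prf1 at 9.09 and 8.83. These 3 were the only genes of the list above the median on all arrays by their brightest probe sets. The other probe set of Prf1 had 4.53 in WT and 4.77 in N1-IC. The NK receptor genes Ncr1 and Klrd1 and the factor gene Eomes were the 3 at or below the lower quartile. The B lineage list (10 genes, 1 at or below the lower quartile on all arrays) had means between 5.49 and 5.82 in WT and between 5.68 and 6.16 in N1-IC, led by Cd79b at 11.13 and 11.29, Vpreb1 at 6.97 and 6.92, and Cd22 at 5.46 and 7.54. Cd22 had the largest log2 fold changes of that list, 2.08 and 2.13 by its 2 probe sets. Over all 18 probe sets of the list the median was 0.0022, with 10 higher in N1-IC and 8 lower. The list of mast cells, basophils and eosinophils (12 genes, none at or below the lower quartile on all arrays) had means between 7.01 and 8.51 in WT and between 7.12 and 8.23 in N1-IC, led by Gata2 at 11.82 and 10.47, Mcpt8 at 10.60 and 10.61, and Prg2 at 10.11 and 10.41. Over the 8 measured T lineage members the mean ran from 4.11 to 4.48 on WT arrays and from 4.13 to 4.36 on N1-IC arrays, so the ranges overlapped.

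Genes with the most similar profile were named for the 3 member probe sets that varied by at least 1 log2 unit and were above the median on at least 1 array. Over the 6 arrays and 5101 eligible probe sets, 1435227_at of Bcl11b was closest to Dleu2, Antxr1 and Slc19a2 (Pearson r of 0.988, 0.983 and 0.976). Cd3e was closest to Mpg, 5031425E22Rik and Cgrrf1 (0.977, 0.96 and 0.954), and 1448575_at of Il7r to Prdm16, Gm26760 and Rarg (0.984, 0.981 and 0.98). With 6 arrays such values are a description. An r above 0.9 was reached by 30, 29 and 36 probe sets for Bcl11b, Cd3e and Il7r.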

How the data were processed

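RNA from 6 sorted samples (5 ng each, amplified with NuGEN Ovation, per the labels' protocols) was hybridised to Affymetrix arrays. The authors deposited linear intensities, with 1 value for each probe set on each array, from 3.6 to 23861, and the submitters' processing notes name RMA, which corrects background, equalises the distributions of the arrays and summarises probes. A change is thus measured against the rest of its array, and differences are compressed at low levels. Log2 was taken with no offset. Of 45101 probe sets, 64 Affymetrix controls were left out, and 34945 of the rest had 1 symbol, 932 several and 9160 none.

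All 45037 probe sets were fitted in 1 model in R 4.3.3 with limma 3.58.1 (lmFit, eBayes, no covariate) with Benjamini-Hochberg adjustment over all of them and a threshold of 0.05. The fit was tested on simulated data. Errors are limma's standard errors unless SD is given. The number of arrays limits the precision. The members and lists were chosen with earlier results of these data known. Of the other T lineage genes, the 4 with the smallest p in each direction by the brightest probe set are named, of other cell types the 3 with the highest mean, and for similar profiles the 3 highest correlations. Cd3d, Klf1, Hba-a1, Eif2s3y, Cd4 and Cd8a were named after their values were seen. Other settings were a trend, a robust prior, array weights, further normalization or centring, an offset of 16, a level filter, 1 value per gene, a replicate block, other thresholds and each array left out.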

Additional observations from a re-analysis of the deposited data

How the results depend on the processing

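No member probe set was called under any alternative run, and of 198 recomputed fold changes 189 kept their direction and 9 turned, all 9 with an array left out. Of the 198, 114 came from settings with no array left out. Among those settings the trend, the robust prior, the replicate block and the brightest probe set leave a fold change as it was. They could not turn a direction, so the 198 overstate how far directions were tried. With each array removed in turn, the log2 fold change ran from -0.0013 to 0.065 for 1420691_at and -0.15 to 0.25 for 1420692_at of Il2ra, -0.90 to 0.72 for 1448575_at of Il7r, -0.078 to 0.15 for 1425822_a_at and -0.16 to 0.0065 for 1458643_at of Dtx1. No member probe set had a mean at the median level or above, so the filtered fit held 0 of them and gives no count for them. The number of probe sets called over the whole table was 4, and 7 with a mean-variance trend, 1 with the brightest probe set of each gene, 10 at a threshold of 0.1, 3466 at an unadjusted p under 0.05 (among them 2 of the other T lineage probe sets) and 3 to 8 with an array left out, with the highest count without WT replicate 2. Of the 14 members, 7 to 8 were above the lower quartile on all remaining arrays with 1 left out, 0 were above the array medians on all 6 and 9 were above 3.57, the highest value of the Y-linked probe sets on the female arrays. With a replicate block the whole table had 2 calls and the members 0. Same-numbered arrays did not deviate together (correlations of deviations from the group means of 0.013, 0.0396 and -0.0769). With 3 arrays per group this cannot show whether the samples were handled in pairs, and the labels give only replicate numbers.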

Other observations

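By array, the highest of the 6 values fell on WT replicate 1 for 5 of the 14 member probe sets and on N1-IC replicate 3 for 4 of them. Over all probe sets these arrays held the highest value in 21.3% and 14.8%. The 5 on WT replicate 1 were those of Ptcra, of both Il7r probe sets, of 1425822_a_at of Dtx1 and of 1452966_at of Bcl11b. The 4 on N1-IC replicate 3 were 1435227_at, 1438784_at and 1450339_a_at of Bcl11b and 1420692_at of Il2ra. The profile of Bcl11b therefore differed between its own probe sets in which array was highest as well as in size.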
